A study of Homo sapiens with 4 samples.

Results

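The SUMO core conjugation genes described here are SUMO2, SUMO3, SUMO4, SAE1 and UBA2. They were taken by gene symbol from the deposited tables, where 5 of 5 were found among 19381 genes. The RNA came from SK-LMS-1, an established human smooth muscle tumour line that the labels call uterine leiomyosarcoma. The 2 treated libraries came from cells kept for 48 h in 50 µM 2-D08, a flavone that blocks transfer of SUMO from its conjugating enzyme to substrates, and the other 2 from untreated cells, with no vehicle stated. All 4 libraries come from 1 cell line, and the labels do not state that the libraries of a group were grown apart. The p-values therefore take their error from library-to-library spread, which could be technical.

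SUMO proteins are small relatives of ubiquitin that cells attach to lysines of other proteins, many of them nuclear. SUMO is made as a precursor, and a protease cuts it behind a pair of glycines. The heterodimer of SAE1 and UBA2 (the E1) then activates that end with ATP, a conjugating enzyme (the E2) takes it over, and ligases (E3) help pass it to a substrate. SUMO2 and SUMO3 form chains and supply most of the modification that follows stress, whereas SUMO4 is a retrogene whose conjugation in cells is disputed.

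Sequences from GENCODE release 29 (GRCh38) show how the precursors of the 2 abundant modifiers differ where the proteases cut. The ends of the coding sequences of SUMO2 (chromosome 17, transcript SUMO2-202) and SUMO3 (chromosome 21, transcript SUMO3-201) are given 5′ to 3′ with their stop codons, with capitals at the codons of the glycine pair that the proteases expose.
SUMO2: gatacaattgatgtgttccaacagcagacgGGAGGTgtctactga
SUMO3: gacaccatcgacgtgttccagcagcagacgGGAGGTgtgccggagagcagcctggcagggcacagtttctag

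Behind that pair the SUMO2 precursor carries 2 residues and the SUMO3 precursor 11. Of the aligned coding bases of SUMO2 and SUMO3 81.4% match, yet 91 of 94 aligned residues do. SUMO2 and SUMO4 stand in the opposite relation, with 93.1% of aligned coding bases and 81 of 95 residues the same. The longest run of bases shared by any transcripts of SUMO2 and SUMO4 was 54, against 33 for SUMO2 and SUMO3, which bears on how far their reads can be told apart.

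SUMO2 (ENSG00000188612.11, chromosome 17, 75165586 to 75182983, minus strand) and SUMO3 (ENSG00000184900.15, chromosome 21, 44805617 to 44818779, minus strand) are spliced genes. SUMO4 (ENSG00000177688.6, chromosome 6, 149400227 to 149401292, plus strand) has 1 exon and lies inside an intron of 6 of the 9 annotated transcripts of TAB2, on the same strand. SAE1 (ENSG00000142230.11, 47113274 to 47210636) and UBA2 (ENSG00000126261.12, 34428352 to 34471251) are both on the plus strand of chromosome 19. GENCODE 29 also lists 18 genes named as SUMO2 pseudogenes, 0 of them in the count table, and their longest runs in common with a SUMO2 transcript ranged from 13 to 176 bases. How the authors assigned reads that match several places is not given in the sources used here, so the split of reads among SUMO2, SUMO4 and the pseudogenes is uncertain.

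The libraries held 14796702 and 31300635 counts in 2-D08 cells and 29586475 and 16628710 in untreated cells. In 2-D08 replicate 2 and untreated replicate 1, 88.8% and 89.0% of the counts above 0 were even numbers, against 47.9% and 48.4% in the other libraries. Why was not tested, and the totals of these libraries may overstate their depth. Pearson's r of log2 CPM across 12906 genes was 0.990 between the 2-D08 libraries and 0.992 between the untreated ones, against 0.965 to 0.972 across groups. Of the defining smooth muscle markers, DES was at 0 in all 4 libraries and MYH11 averaged 0.721 CPM in 2-D08 cells and 0.599 CPM in untreated cells, and the markers above 10 TPM were CALD1, SMTN, MYLK and TAGLN. Summed TPM of 9 smooth muscle markers was 343 to 372 in 2-D08 cells and 452 to 458 in untreated cells; 4 of the 7 tested fell, whereas SMTN rose (log2 fold change 0.58; edgeR adjusted p = 0.00119). The sums were 207 to 257 and 250.2 to 293 for 5 epithelial markers, 151 to 174 and 110 to 113 for 4 immune markers, most of it CD68, and 0.54 to 0.87 and 0.51 to 0.59 for 4 endothelial ones, with CDH1 and KDR at 0 in both untreated libraries. Of these, 2 epithelial markers fell, and CD68 and LCP1 rose among the immune ones (LCP1 fold 5.03, edgeR adjusted p = 7.26e-05). The endothelial markers were near the floor and split. PECAM1 rose (fold 3.75, edgeR adjusted p = 0.0171), from a mean of 0.055 TPM in untreated cells to 0.27 TPM in 2-D08 cells. CDH5 was lower in 2-D08 cells but not called (log2 fold change -1.10, edgeR adjusted p = 0.131), and VWF was level. The part of these shifts in the values below was not tested.

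In these cells 4 of the 5 genes were expressed well in every library, and 1 was called as changed with 2-D08. UBA2 was higher in 2-D08 cells, by a fitted fold of 1.22 (95% confidence interval 1.06 to 1.39). Its call did not hold in every alternative fit, as given below. SUMO2, SUMO3 and SAE1 did not pass the test, and their fitted folds were 1.07, 1.01 and 1.00. SUMO4 had 2 to 4 counts per library and was too low to test. The comparison used edgeR's quasi-likelihood test on the deposited counts of all 12906 genes that passed a low-count filter, and a gene was called where the adjusted p was under 0.05. Over all genes tested 33.9% were called, 17.1% as higher, so 1 of 4 tested members called is near the share among all genes. In bulk RNA, fewer cells of a kind and less RNA per cell cannot be told apart.

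**Figure D1:**
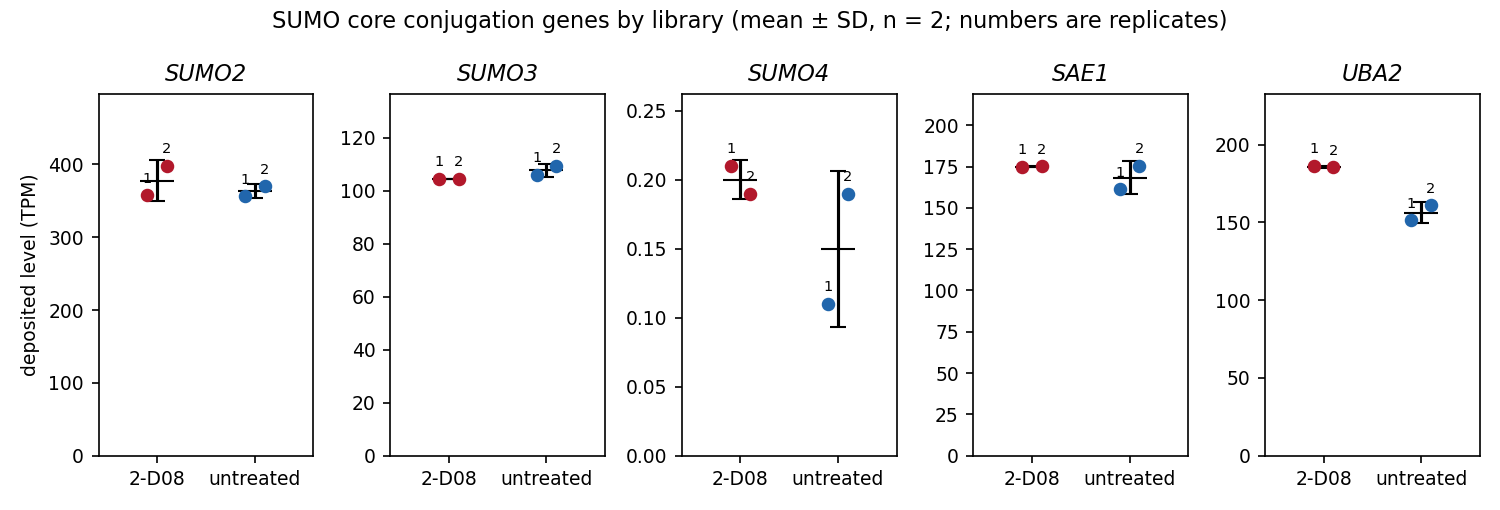
Deposited TPM (vertical axes, from 0, a scale per gene) of each gene in 2-D08 (red, left) and untreated (blue, right) libraries; numbers mark replicates and bars the mean ± SD (n = 2). The 2 groups stand apart for UBA2 (185 and 186 against 151 and 161 TPM), and for SUMO3 by a small step in the other direction; SUMO4 lies at 0.11 to 0.21 TPM.

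The modifier genes are described first. SUMO2 had 358 and 398 TPM in 2-D08 replicates 1 and 2, against 356 and 370 TPM in untreated replicates 1 and 2. TPM is the authors' read abundance per transcript length and depth. The deposited TPM did not share a total, with sums of 741705 and 716934 in 2-D08 cells and 761770 and 745964 in untreated cells, so TPM set between libraries carries that difference. The 2-D08 libraries lay on either side of the second untreated one, so the groups overlap. The counts behind these levels were 3900 and 9108 in 2-D08 cells and 7353 and 4443 in untreated cells. As counts scaled to library size with TMM factors (CPM) SUMO2 averaged 277 ± 25.5 in 2-D08 cells and 258 ± 14.9 in untreated cells (SD, n = 2 each). The log2 fold change was 0.10 ± 0.10 (SE; 95% interval -0.10 to 0.31; edgeR adjusted p = 0.436). The replicates themselves differed by 0.19 (2-D08) and 0.12 (untreated) on the log2 CPM scale, more than the groups did. Without 2-D08 replicate 1 the value was 0.19, and without 2-D08 replicate 2 it was 0.00042. Without untreated replicate 1 it was 0.04 and without untreated replicate 2 it was 0.16. The estimate thus rests on which libraries are kept.

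A neighbouring gene may bear on the SUMO2 reading. JPT1 overlaps the span of SUMO2 by 2696 bases on the same strand (chromosome 17, 75135248 to 75168281). It rose, with 2062 and 4236 counts in 2-D08 cells and 2740 and 1496 in untreated cells (log2 fold change 0.58 ± 0.09; edgeR adjusted p = 0.000247). How reads in the shared stretch were assigned is not given in the sources used here, and the part of JPT1 in the SUMO2 value was not tested.

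SUMO3 had 104.49 and 104.58 TPM in 2-D08 cells and 106 and 109 TPM in untreated cells. On this scale both treated libraries are the lower ones. The step is 3.2 TPM between means of 104.5 ± 0.0636 and 107.7 ± 2.38 (SD, n = 2 each). On the CPM scale the order was lost, with 125 and 131 in 2-D08 cells against 122 and 130.4 in untreated cells. The fit gave a log2 fold change of 0.02 ± 0.09 (95% interval -0.17 to 0.21; edgeR adjusted p = 0.886). With TPM rescaled to equal totals the groups overlapped, at 141 and 146 in 2-D08 cells and 139 and 147 in untreated cells. The sign thus differed between fits, at -0.04 with limma on log2(TPM + 1) and 0.0045 with limma on TPM at equal totals. None of these fits called SUMO3.

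SUMO4 had 2 and 4 counts in 2-D08 cells and 2 and 2 in untreated cells. Its deposited levels were 0.21 and 0.19 TPM in 2-D08 cells and 0.11 and 0.19 TPM in untreated cells. A count of 2 has an exact 95% Poisson interval of 0.242 to 7.22 and a count of 4 one of 1.09 to 10.2, which cover counting error only, so no difference was detectable at this depth. All 4 counts are even, and 2 of them come from the libraries with mostly even counts. TAB2, within whose introns SUMO4 lies, had 2855 and 6714 counts in 2-D08 cells and 5692 and 3341 in untreated cells, and was not called (log2 fold change 0.05 ± 0.10; edgeR adjusted p = 0.721). Which reads make up the few SUMO4 counts was not tested.

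Together the 3 modifier genes summed to 462 and 503 TPM in 2-D08 cells and 462 and 480 TPM in untreated cells. SUMO2 made up 77.4% and 79.2% of that sum in 2-D08 cells and 77.0% and 77.1% in untreated cells. SUMO4 held 0.0454% and 0.0378% of it in 2-D08 cells and 0.0238% and 0.0396% in untreated cells. The top sum was that of 2-D08 replicate 2.

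The subunits of the activating enzyme gave different readings. UBA2, which carries the catalytic cysteine that SUMO is loaded on, had 186 and 185 TPM in 2-D08 cells, against 151 and 161 TPM in untreated cells. Both treated libraries lie above both untreated ones, on the TPM scale and in CPM (265 and 292 against 224 and 234). Groups that do not overlap in CPM were common, at 67.5% of all genes tested. The counts were 3994 and 9000 in 2-D08 cells and 6648 and 3871 in untreated cells. Means were 186 ± 0.672 TPM in 2-D08 cells and 156 ± 6.89 TPM in untreated cells (SD, n = 2 each). The log2 fold change was 0.28 ± 0.09 (SE; 95% interval 0.09 to 0.48; edgeR adjusted p = 0.029), larger than the replicate gaps of 0.14 (2-D08) and 0.064 (untreated). Of all genes tested 50.8% had a smaller absolute change, so its size is a middling one. The call was lost when untreated replicate 1 was left out (0.25; adjusted p = 0.374), or untreated replicate 2 (0.31; adjusted p = 0.21), and with limma on log2(TPM + 1) (0.25; adjusted p = 0.11). At equal TPM totals the groups still did not overlap, at 251 and 259 in 2-D08 cells against 199 and 216 in untreated cells (limma log2 fold change 0.30; adjusted p = 0.0834).

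SAE1, the partner subunit of UBA2 in the E1, had 174.98 and 175.15 TPM in 2-D08 cells, against 161 and 175.41 TPM in untreated cells. The treated pair falls inside the untreated range. With TPM rescaled to equal totals it lay just above, at 236 and 244 in 2-D08 cells against 212 and 235 in untreated cells, and was not called (limma adjusted p = 0.500). In CPM the 4 libraries were almost level, at 196 and 199 in 2-D08 cells and 198 and 196 in untreated cells. The log2 fold change was 0.0046 ± 0.088 (95% interval -0.18 to 0.19; edgeR adjusted p = 0.972), and 0.821% of genes tested had a smaller absolute change. The interval leaves room for a fold between 0.88 and 1.14. ZC3H4 overlaps the first 479 bases of the SAE1 span on the opposite strand, and was not called (-0.19 ± 0.11; edgeR adjusted p = 0.177).

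Because a ratio within a library does not depend on the scaling between libraries, the subunits were also set against each other. The ratio of SAE1 to UBA2 in TPM was 0.939 and 0.945 in 2-D08 cells, against 1.07 and 1.09 in untreated cells. UBA2 was thus the more abundant transcript in both treated libraries and SAE1 in both untreated ones. The log2 difference was -0.19 (two-sided exact permutation test, p = 0.333, the smallest that 2 libraries against 2 allow). In counts, which are not per length, the ratio was 0.740 and 0.681 in 2-D08 cells and 0.883 and 0.836 in untreated cells, and the log2 difference was -0.28. Summed, the 2 subunits had 361 and 360.5 TPM in 2-D08 cells, against 313 and 336 TPM in untreated cells. Counts do not rank genes of different length, so the order of the subunits rests on TPM and the lengths used for it. The lower ratio in 2-D08 cells was present in TPM and in counts, which come from the same libraries.

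The ratio of SUMO2 to SUMO3 in TPM was 3.42 and 3.81 in 2-D08 cells, against 3.36 and 3.38 in untreated cells. The groups do not overlap, but the treated libraries differ more from each other than the first of them does from the untreated ones. The log2 difference was 0.10 (two-sided exact permutation test, p = 0.333). The ratio of SUMO4 to SUMO2 rests on the 2 to 4 counts of SUMO4 and its groups overlap (exact permutation p = 0.667). Adjusted over the 3 ratios (Benjamini-Hochberg), the exact permutation p was 0.5 for the first and second and 0.667 for the third.

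**Figure D2:**
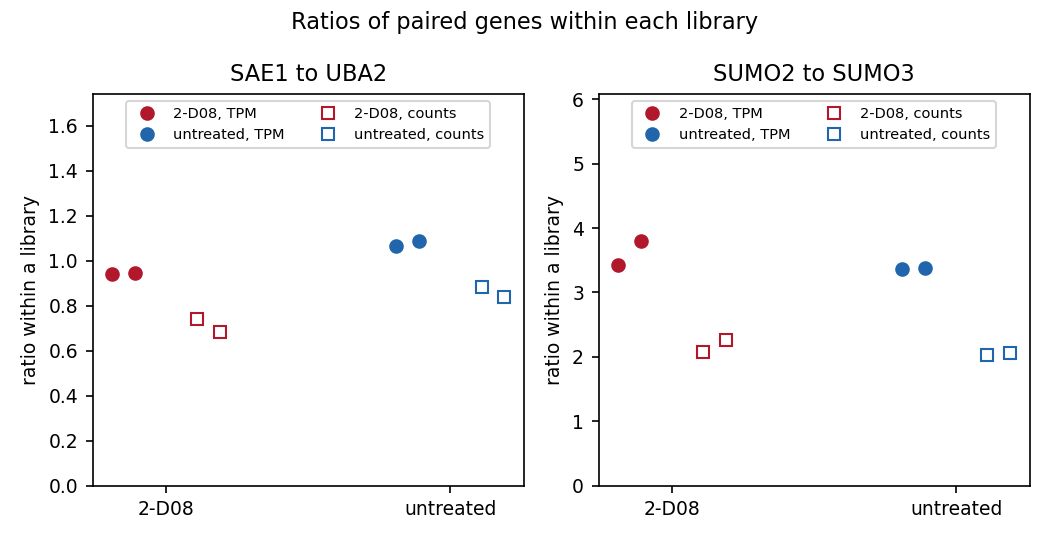
Ratio of the levels of 2 genes within each library (vertical axes, from 0), from deposited TPM (filled circles) and from counts (open squares), for 2-D08 (red, left) and untreated (blue, right) libraries. SAE1 to UBA2 lies at 0.939 and 0.945 in 2-D08 cells, below the 1.07 and 1.09 of untreated cells in TPM; SUMO2 to SUMO3 is set apart mainly by 2-D08 replicate 2 (3.81).

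Ordered by TPM over the 4 libraries, SUMO2 came first (356 to 398 TPM, ranks 262 to 296 of 19381 genes). SAE1 (161 to 175.41 TPM, ranks 683 to 761) and UBA2 (151 to 186 TPM, ranks 641 to 844) followed and overlap each other. SUMO3 was below both at 104 to 109 TPM (ranks 1235 to 1337), and SUMO4 was last at ranks 13127 to 13548. Annotated transcripts of SUMO2 run from 490 to 3190 bases and those of UBA2 from 171 to 4023, so these per-length levels depend on the transcripts the authors' estimate used.

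The same scale places the members in their families. Among 10 genes of E1 enzymes, SAE1 and UBA2 had the highest mean TPM, ahead of NAE1, a subunit of the NEDD8 E1, at 99.0 and 114 TPM in 2-D08 cells and 94.4 and 91.5 TPM in untreated cells. The ubiquitin E1 gene UBA1 had 79.4 and 63.0 TPM in 2-D08 cells and 84.8 and 78.3 TPM in untreated cells. Among 18 ubiquitin-like modifier genes compared, SUMO2 was the fourth and SUMO3 the ninth by mean TPM. RPS27A and FAU, which encode a ubiquitin and a ubiquitin-like protein fused to ribosomal proteins, and the ubiquitin gene UBB stood above SUMO2, although the FAU libraries (328 to 416 TPM) overlap its range, as do those of UBL5, the next gene (301 to 385 TPM).

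**Figure D3:**
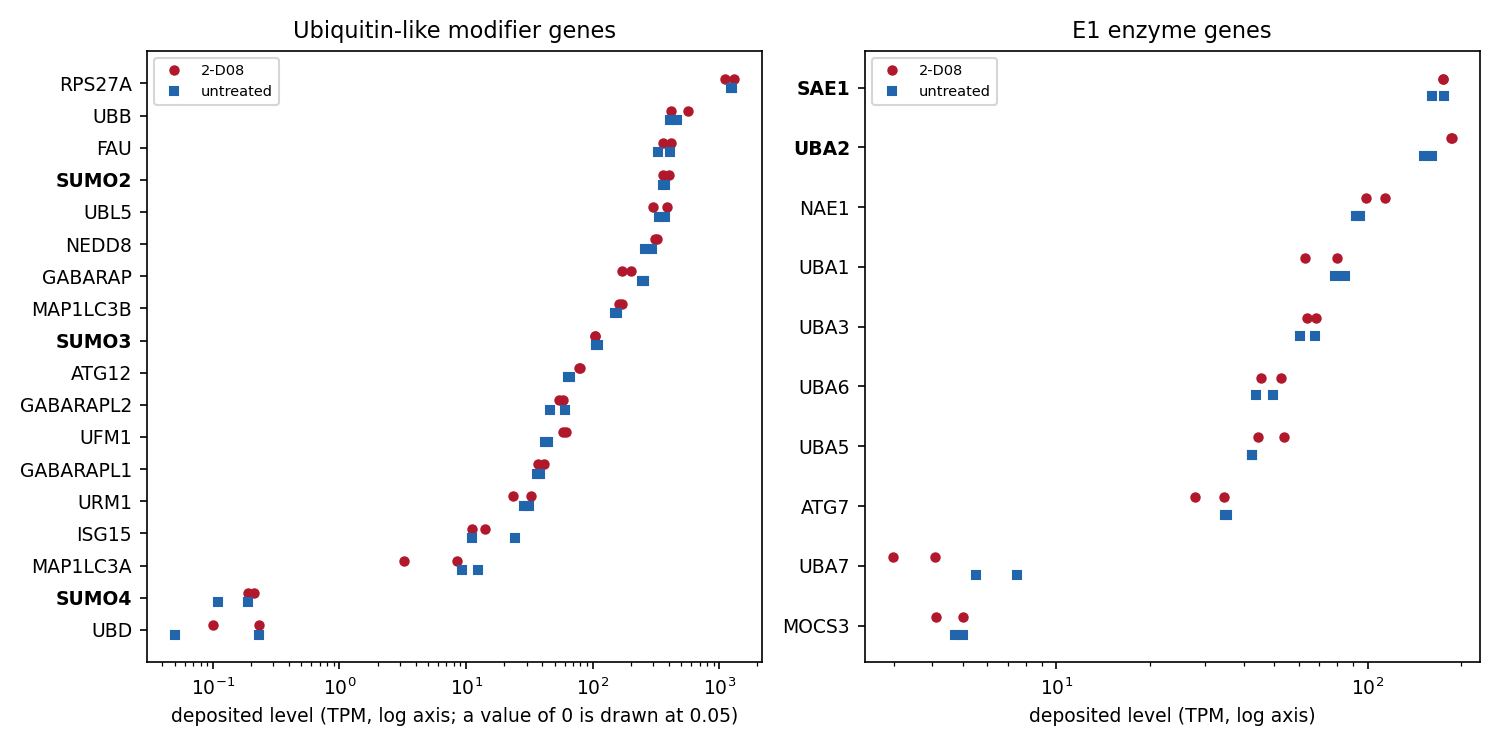
Deposited TPM (log axis) of ubiquitin-like modifier genes (left) and E1 enzyme genes (right) in each 2-D08 library (red circles) and untreated library (blue squares); members are in bold. SAE1 and UBA2 lie above the 8 other E1 genes, SUMO2 lies at 356 to 398 TPM, and SUMO4 is near the bottom with UBD.

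Other genes of the pathway were read from lists of named genes. Over all genes tested 33.9% were called, 17.1% as higher. Of 9 proteases that free or remove SUMO, 4 rose and 1 fell, with a median log2 fold change of 0.17; over all genes tested the median was -0.0033. SENP1, which processes SUMO precursors and cuts conjugates, had a value of 0.48, SENP3 0.39 and SENP5 0.29, both nucleolar proteases that act mainly on SUMO2 and SUMO3, and DESI1 0.40 (edgeR adjusted p of 0.00289, 0.0176, 0.0242 and 0.0132). SENP7, which trims SUMO2 and SUMO3 chains, fell by 0.54 on the log2 scale (edgeR adjusted p = 0.00959). Of 13 SUMO ligases and SUMO-targeted ubiquitin ligases 1 rose and 0 fell, with a median of 0.14. The one that rose was RNF4, which ubiquitylates SUMO chains (0.48, edgeR adjusted p = 0.00116). In this fit the called share thus lay above that of all genes for the proteases and below it for the ligases, with no set test run. With limma on log2(TPM + 1), which called 1598 of 12906 genes, SENP7 was the only 1 of the 9 proteases called (adjusted p = 0.0421). In that fit the protease share was thus not above that of all genes.

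The comparison lists covered the parallel pathways. Of 14 tested modifier genes other than SUMO (UBD was too low), 3 rose and 2 fell, with a median of 0.14, which is near the 33.9% called over all genes. UFM1 (0.55), ATG12 (0.40) and NEDD8 (0.29) were higher, and GABARAP (-0.37) and MAP1LC3A (-1.05) were lower. Of 8 E1 enzymes of other modifiers 0 rose and 2 fell, with a median of 0.027, a called share also near that of all genes for so short a list. These were UBA7, the ISG15 E1 (-0.69; edgeR adjusted p = 0.0212), and ATG7, the autophagy E1 (-0.32; edgeR adjusted p = 0.0497). In this fit no E1 gene other than UBA2 was called higher. NAE1, the highest of these 8, had 0.23 (edgeR adjusted p = 0.0875), against 0.28 for UBA2 (edgeR adjusted p = 0.029). The NAE1 groups did not overlap in CPM or TPM either, so the call separates genes with similar values. The difference between UBA2 and the others was not tested. Of these 13 called genes outside the members, 10 lost their call with limma on log2(TPM + 1), 10 when untreated replicate 1 was left out and 8 when untreated replicate 2 was.

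**Figure D4:**
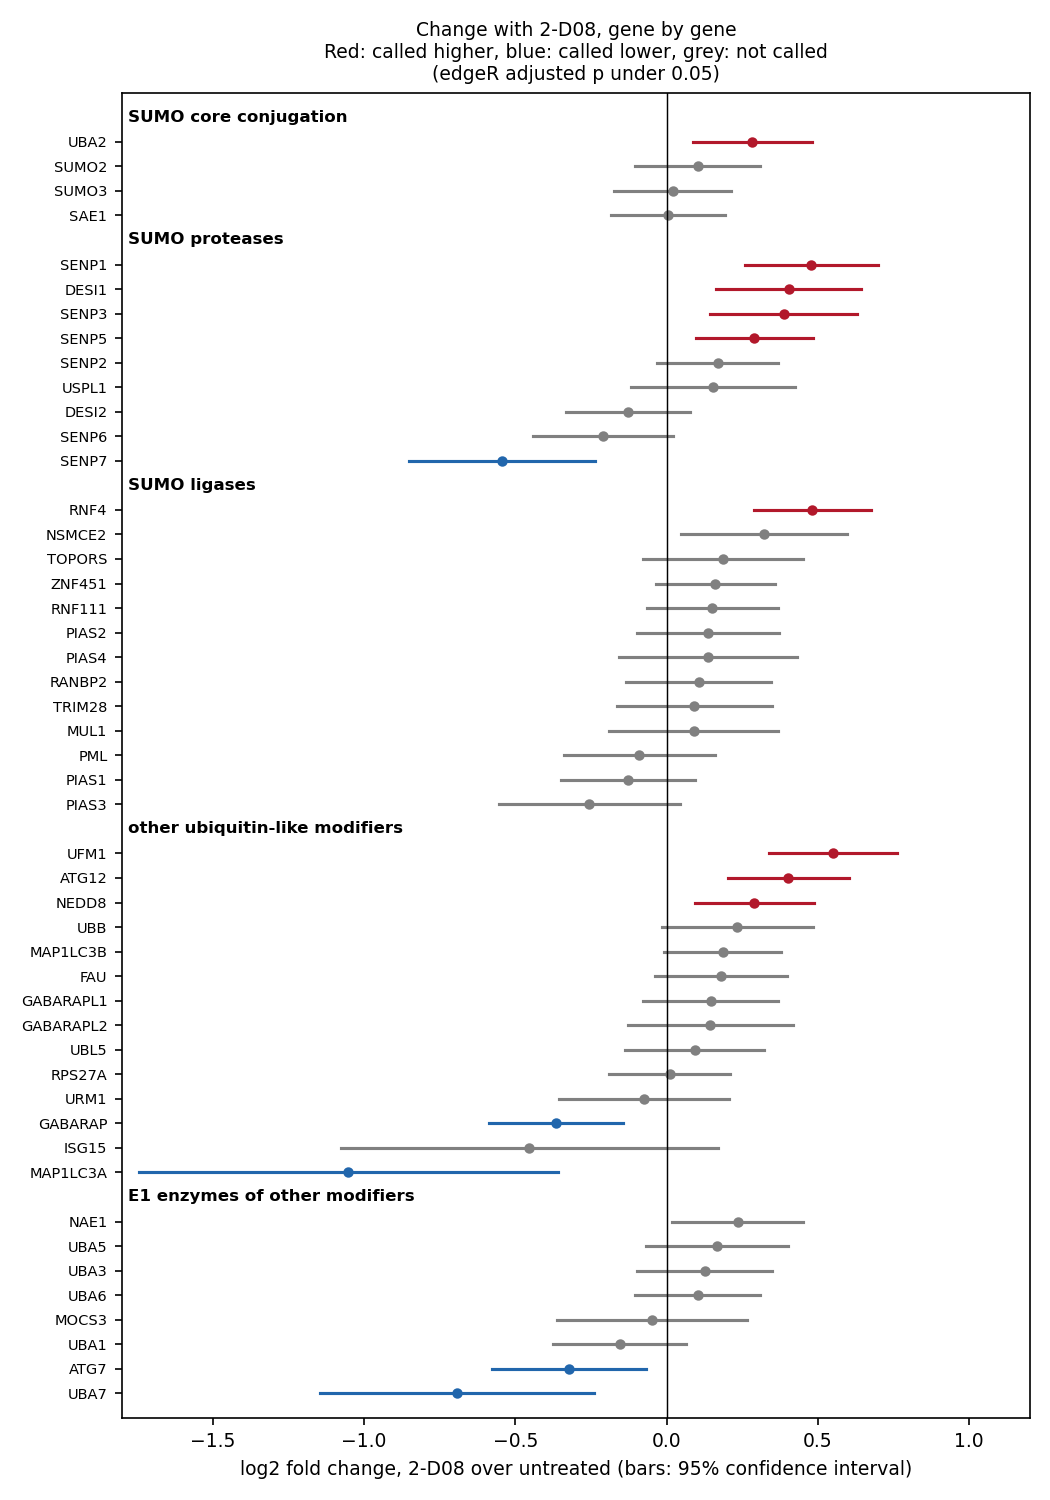
Log2 fold change, 2-D08 over untreated, with its 95% confidence interval (horizontal axis) for each tested member and each tested gene of the 4 lists, in groups from the top; red marks genes called higher, blue called lower and grey not called. UBA2 (0.28) is the red point among the members, and the intervals of SUMO2, SUMO3 and SAE1 include 0.

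Patterns most like those of the members were sought among 10500 other genes averaging 5 CPM or more, by the root mean square difference of mean-centred log2 CPM over the 4 libraries, as a description with no test. For UBA2 they were CCDC93 (0.00313), GDF11 (0.00481) and CMPK1 (0.00619). For SUMO2 they were TRIM24 (0.00531), MSANTD4 (0.00684) and SLC41A2 (0.00685). For SUMO3 they were OSBPL6 (0.00538), GATAD1 (0.00722) and ANKEF1 (0.00823), and for SAE1 RBSN (0.00853), MIDEAS (0.01) and MOAP1 (0.0103). Agreement over only 4 libraries says little of any one gene.

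**Figure D5:**
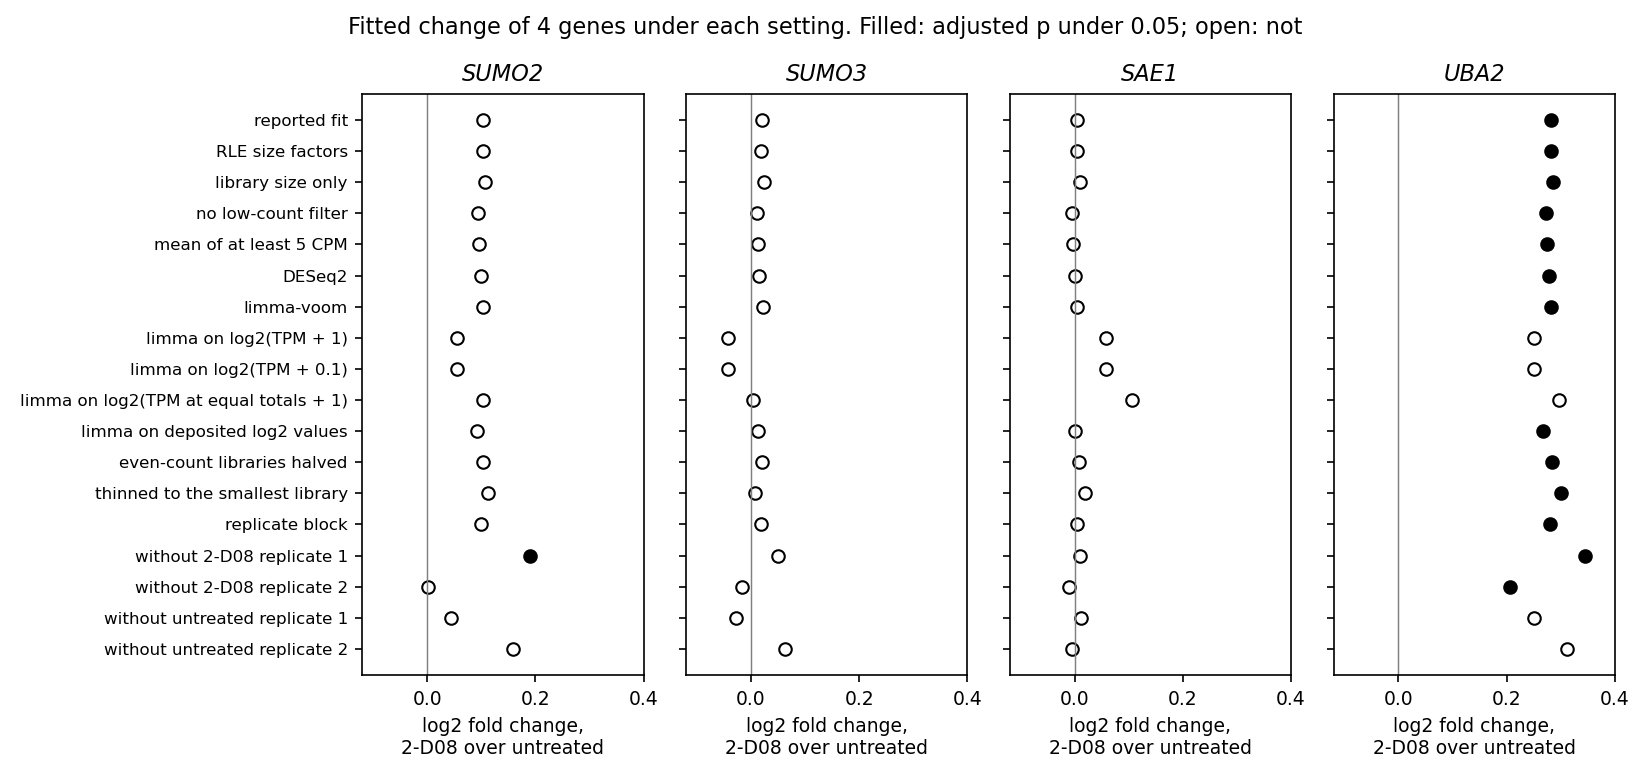
Log2 fold change, 2-D08 over untreated (horizontal axes), of SUMO2, SUMO3, SAE1 and UBA2 under the reported fit and each other setting (rows); filled points have an adjusted p under 0.05. UBA2 is above 0 in every setting shown (0.21 to 0.35) and open in 5 of them, whereas SUMO3 and SAE1 lie on both sides of 0.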

How the data were processed

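RNA of SK-LMS-1 cells was sequenced in 4 libraries (2 with 2-D08, 2 untreated) after ribosomal RNA depletion, per the labels' protocols. Cutadapt 3.4, STAR 2.7.8a, DESeq2 and GRCh38 are named in the submitters' processing notes; no counting tool, strand setting or annotation release is named there. Per gene, the authors deposited whole-number counts, TPM values and a table of 16871 genes named as normalised counts whose values read as log2 and were used for 1 alternative only. Counts were filtered with filterByExpr (minimum count 10), scaled with TMM factors and tested with edgeR 4.0.16 (robust quasi-likelihood, two-sided, Benjamini-Hochberg over 12906 genes, no covariate) in R 4.3.3, with limma 3.58.1 and DESeq2 1.42.0 as alternatives. The procedure was also run on simulated counts with few changed genes and a common dispersion. That setting is simpler than these data, and no call here rests on it. Standard errors are Wald errors of the quasi-likelihood fit, and intervals are 95% intervals from its t quantiles. Intervals cover the spread between libraries or counting error only. Same-numbered libraries are not stated to be paired, so no block was used. The members and lists were chosen with earlier results of these data known. Named genes are the members, list genes past the threshold, genes that overlap a member, and the 3 nearest patterns of each tested member; markers, and uncalled genes that neighbour a member in level (NAE1, UBA1, RPS27A, FAU, UBB, UBL5), were named after their values were seen. Some genes of the pathway are not reported here, and the list counts leave them out. Positions and sequences are from GENCODE 29; coding sequences are of APPRIS principal transcripts.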

Additional observations from a re-analysis of the deposited data

How the results depend on the processing

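The members called were 1, the listed genes called 13 and all genes called 4376. DESeq2, limma-voom, limma on the deposited log2 values, scaling by RLE or by totals alone, dropping the filter or raising it to 5 CPM, halving the 2 libraries with mostly even counts, and thinning to the smallest library kept the call of UBA2 and left SUMO2, SUMO3 and SAE1 uncalled. On the log2 TPM scale (limma, pseudocount 1, then 0.1), 0 members were called in each case, although UBA2 had an unadjusted p of 0.0273 and 0.0268; 3 listed genes and 1598 and 1608 genes were called. On those scales UBA2 had 0.250 and 0.251 (adjusted p of 0.11 and 0.109) and SUMO3 -0.0430 and -0.0434; the cause was not tested. With TPM at equal totals, an alternative chosen after seeing the data, 0 members, 4 listed genes and 1795 genes were called (UBA2 0.298, adjusted p = 0.0834, unadjusted p = 0.0177). There SUMO3 had 0.0045. SAE1 turned sign when the filter was dropped (-0.0042) or raised (-0.0023). The log2 difference of SAE1 to UBA2 was -0.275 in counts. Over the fits that left out 1 library, where a lone library is assumed to vary like the other group, 0 to 2 members, 3 to 25 listed genes and 1866 to 6077 genes were called, fewest without untreated replicate 1. Without untreated replicate 2 they were 0, 6 and 2695, and without 2-D08 replicate 1, 2, 25 and 6077. Values then ran from 0.00042 to 0.19 for SUMO2, -0.027 to 0.063 for SUMO3, -0.0097 to 0.012 for SAE1 and 0.21 to 0.35 for UBA2. With the replicate number as a block, 1 member (UBA2, 0.28, adjusted p = 0.000561), 19 listed genes and 6239 genes were called. Deviations of same-numbered libraries correlated at 0.157 over 12906 genes and at 0.398 over the 10502 averaging 5 CPM or more, a hint from the data and not a stated pairing. Of the 13 listed calls 1 held under all 17 alternatives and 0 turned sign. SUMO4 was the only member with counts too low to test.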

Other observations

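If both rest on the same read assignment, counts divided by TPM give a length term for each gene, up to a factor shared by the library. Its ratio for UBA2 over SAE1 was 1.27 and 1.39 in 2-D08 cells and 1.21 and 1.30 in untreated cells, and so was not constant between libraries. Whether the deposited counts and TPM share a read assignment is not given in the sources used here. For SUMO2 over SUMO3 it was 0.605 and 0.593 in 2-D08 cells and 0.604 and 0.610 in untreated cells, a narrower range. The gap between the count and TPM ratios of UBA2 and SAE1 is this term by construction, and the cause of its spread was not tested.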
